A study of Bos taurus with 12 samples.

Results

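FOXO1 and FOXO3 are forkhead transcription factors, and FBXO32, TRIM63, TRIM54, TRIM55, FBXO30 and MUL1 encode ubiquitin ligases that act in muscle wasting. These 8 genes were chosen by symbol from the 18436 genes with an mRNA value in cultured bovine muscle cells, and their m6A (N6-methyladenosine) peaks by gene name from the peak lists of the same cells. Of the 8 genes, 7 had more mRNA in differentiated myotubes than in proliferating myoblasts, with the largest change in TRIM54 and no detectable change in MUL1. Among all tested genes 16.1% were higher in myotubes and 26.7% lower. All 8 transcripts carried m6A peaks in both states, as did 68.6% of all tested genes. They held 16 peaks in myoblasts and 11 in myotubes, but these covered 9163 bases in myoblasts and 12829 in myotubes. Of all genes with peaks in both lists, 72.6% covered more bases in myotubes.

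In muscle, insulin and IGF signalling through AKT phosphorylates the FOXO factors and holds them in the cytoplasm. When that signal falls, as in fasting or disuse, FOXO proteins enter the nucleus and switch on atrophy genes, among which FBXO32 (also called atrogin-1 or MAFbx) and TRIM63 (MuRF1) are the best known. Ubiquitin ligases choose the proteins that receive ubiquitin, which the proteasome then degrades. The same ligases are also part of normal muscle, where the MuRF proteins sit on sarcomeres and microtubules.

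The cells were primary myoblasts from the longissimus dorsi (a back muscle) of newborn Qinchuan cattle, described in the study's methods as coming from 1 animal. No other treatment is labelled. The GM group was collected at 80% confluence in growth medium with 20% fetal bovine serum. The DM group was collected after 4 days in differentiation medium with 2% horse serum, at a labelled 100% confluence. Medium, serum, confluence and time therefore differ together between the groups and cannot be told apart. Both media were DMEM/F12 with antibiotics. Each group had 3 input libraries, which give mRNA as FPKM (fragments of a gene, scaled by transcript length and by the mapped fragments of the library), and 3 libraries immunoprecipitated (IP) with an m6A antibody. No label says that the 3 replicates came from separate animals, so the p-values measure the spread between these cultures only.

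The labels were checked against cell type markers. PAX7, MYF5, MYOD1 and CDH15 fell in DM, and DES, the remaining one of 5 myoblast markers, did not pass the test. Of 9 myotube markers 7 rose, and their summed level went from 775 to 866 FPKM in the GM libraries to 1501 to 1555 FPKM in DM. Muscle differentiation genes were already abundant in GM, where MYOG had a mean of 197 FPKM and MYH3 of 273 FPKM. The summed fibroblast markers lay between 10282 and 10429 FPKM in GM and between 11633 and 12197 FPKM in DM, and 3 of 6 rose (PDGFRA, COL3A1 and DCN, with a median log2 fold change of 0.19 over the 6). Their part in the results was not tested, and in these bulk samples more cells of a type and more RNA per cell cannot be told apart. Endothelial markers summed to at most 0.444 FPKM, leukocyte markers to at most 1.94 FPKM and adipocyte markers to at most 2.75 FPKM in any library. No value of KDR, PTPRC and CD3E, 3 of these markers, was analysed here, and none of the others was at 0 in all libraries. The sum of FPKM over all genes was 415740 to 434458 in the GM libraries against 386436.5 to 390827 in DM, so a transcript's FPKM was read both as deposited and rescaled.

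Differences in mRNA were tested with limma on log2(FPKM + 1) over the 12302 genes whose mean reached 0.5 FPKM, with Benjamini-Hochberg adjustment over all of them. "Rose" and "fell" stand for an adjusted p under 0.05, and fold changes on this scale understate those of genes with low levels. All 8 genes passed the filter, TRIM63 only through its DM libraries. By this rule 7 of the 8 rose and 0 fell, where 16.1% of all tested genes rose and 26.7% fell. The 8 genes were chosen with earlier results of these data known, so these shares do not test the set. FOXO1, FBXO32, TRIM54 and TRIM55 also passed a fold change over 1.5 on the same FPKM + 1 scale, as did 4.89% of all tested genes upward and 6.88% downward. In 7 genes every DM library lay above every GM library, an arrangement found in 21.1% of tested genes, while 33.0% had all DM libraries below GM. The median log2 fold change of the 8 genes was 0.65, against -0.05 over all tested genes. Leaving out 1 library left 5 to 7 of the 8 genes past the threshold.

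**Figure D1:**
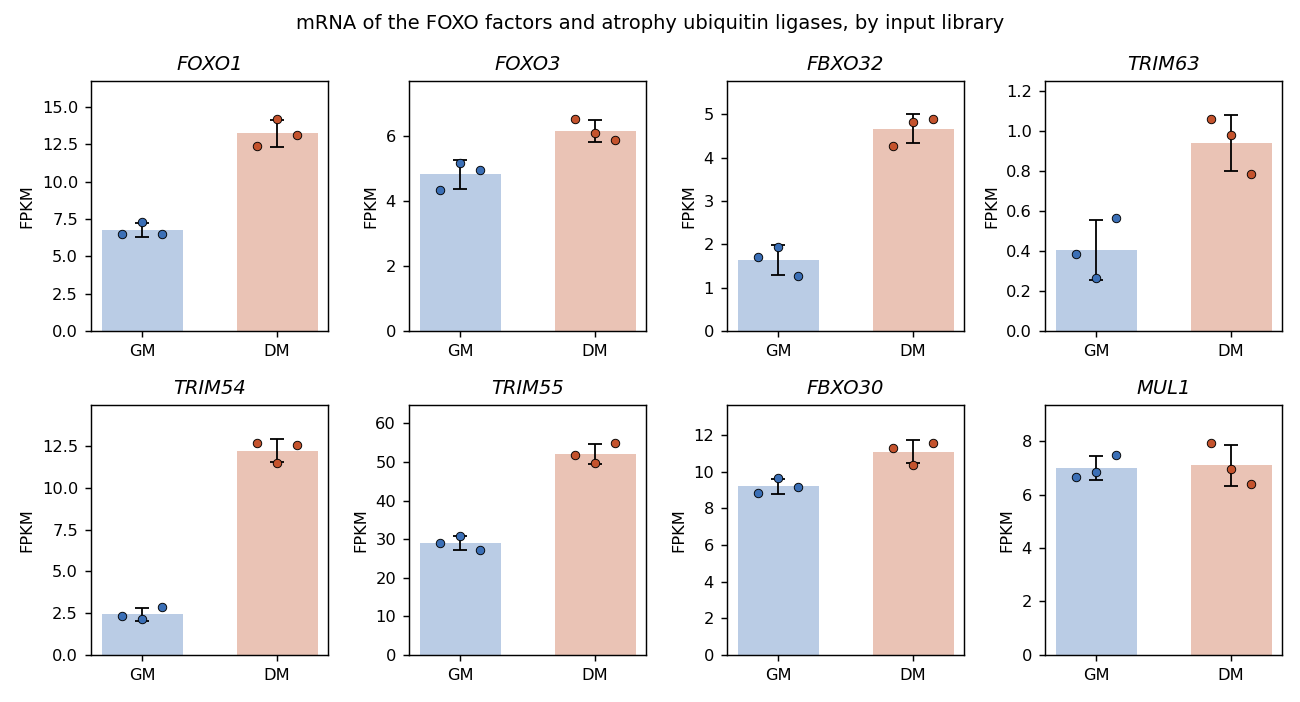
mRNA level (FPKM, linear axes from 0, a separate scale for each gene) of the 8 genes in the input libraries of proliferating myoblasts (GM) and day 4 myotubes (DM). Points are the 3 libraries of a group, bars their mean and error bars the SD. The DM points lie above the GM points in each gene except MUL1, where they overlap.

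FOXO1 (ENSBTAG00000044105, chr12:21900230-21991693, plus strand of ARS-UCD1.2) had 6.51, 7.29 and 6.52 FPKM in the GM libraries and 12.4, 14.2 and 13.1 FPKM in DM. The lowest DM library was well above the highest GM library. The mean went from 6.77 ± 0.448 to 13.2 ± 0.905 FPKM (SD, n = 3), which is 1.95 times, with a log2 fold change of 0.87 ± 0.0706 (SE) and a limma adjusted p of 3.46e-05. Among all tested genes this change stood at the 97.4th percentile, and the level of FOXO1 moved from the 44.2nd to the 64.8th percentile.

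FOXO3 (ENSBTAG00000011234, chr9:41522588-41620269, minus strand), the FOXO factor most often tied to atrophy genes and autophagy, had 4.33, 5.17 and 4.95 FPKM in GM and 6.51, 6.08 and 5.85 FPKM in DM. The groups did not overlap, but the gap between them was smaller than the range of the GM values. Its mean rose from 4.81 ± 0.437 to 6.15 ± 0.332 FPKM (SD, n = 3), a log2 fold change of 0.30 ± 0.0755 (SE) with a limma adjusted p of 0.0133. Without DM replicate 1, which held the highest value, the change was 0.26 and missed the threshold (limma adjusted p = 0.0556). Within each library, FOXO1 had 1.32 to 1.51 times the FPKM of FOXO3 in GM and 1.90 to 2.33 times in DM. That ratio did not overlap between the groups, and the difference on the log2 scale was 0.61 (exact permutation test, two-sided, p = 0.1, the smallest that 3 against 3 libraries can give, and 0.125 adjusted over 5 such ratios).

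FBXO32 (ENSBTAG00000016194, chr14:16328949-16361047, plus strand) encodes an F-box protein, the part of an SCF ubiquitin ligase that binds the substrate. It had 1.70, 1.95 and 1.26 FPKM in GM and 4.27, 4.82 and 4.88 FPKM in DM. Each DM library held more than the sum of any 2 GM libraries. The mean went from 1.64 ± 0.348 to 4.66 ± 0.336 FPKM (SD, n = 3), 2.85 times, with a log2 fold change of 1.11 ± 0.106 (SE) and a limma adjusted p of 8.55e-05. An unnamed gene on the opposite strand, ENSBTAG00000049478, overlaps FBXO32 and had a mean of 0.384 FPKM. The libraries kept strand, so reads of the pair can be told apart if the authors' counting used it, which the sources used here do not state.

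FBXO30 (ENSBTAG00000005376, chr9:83070230-83085504, minus strand), the F-box protein also called MUSA1, which BMP signalling restrains, had 8.82, 9.63 and 9.14 FPKM in GM and 11.3, 10.4 and 11.6 FPKM in DM. All DM values were higher, by little. Its mean rose from 9.20 ± 0.409 to 11.1 ± 0.622 FPKM (SD, n = 3), with a log2 fold change of 0.24 ± 0.0627 (SE) and a limma adjusted p of 0.0145. This was the smallest change to pass, and it missed the threshold without GM replicate 1 (0.22, limma adjusted p = 0.0560), without DM replicate 1 (0.23, limma adjusted p = 0.0574) or without DM replicate 3 (0.21, limma adjusted p = 0.0571). The FPKM of FBXO32 was 0.138 to 0.202 of that of FBXO30 in GM and 0.379 to 0.465 of it in DM (difference of log2 ratios 1.26, exact permutation p = 0.1).

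TRIM63 (ENSBTAG00000005085, chr2:127020869-127035929, plus strand) encodes MuRF1, a RING-type ligase of the thick filament, and had the lowest level of the set. Its values were 0.384, 0.268 and 0.567 FPKM in GM and 1.06, 0.981 and 0.786 FPKM in DM. The groups did not overlap, although all 6 values are low among tested genes, with the GM mean at the 0.764th percentile and the DM mean at the 8.07th. The mean went from 0.407 ± 0.151 to 0.943 ± 0.141 FPKM (SD, n = 3), 2.32 times. On the log2(FPKM + 1) scale this was 0.47 ± 0.106 (SE; limma adjusted p = 0.00795), and 1.07 with a pseudocount of 0.1 (limma adjusted p = 0.0109). Without a filter on low values TRIM63 was still past the threshold (limma adjusted p = 0.0120).

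TRIM54 (ENSBTAG00000018267, chr11:72337029-72358244, minus strand), the MuRF3 ligase that binds and stabilises microtubules, changed most. It had 2.31, 2.13 and 2.87 FPKM in GM and 12.7, 11.5 and 12.5 FPKM in DM. All DM libraries thus held about the same, high level. Its mean rose from 2.43 ± 0.385 to 12.2 ± 0.672 FPKM (SD, n = 3), 5.02 times, and the log2 fold change of 1.95 ± 0.0894 (SE; limma adjusted p = 1.63e-06) stood at the 99.7th percentile of tested genes.

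TRIM55 (ENSBTAG00000021009, chr14:30469248-30495868, plus strand), the MuRF2 ligase, which moves between microtubules, sarcomeres and the nucleus, was the most abundant of the 8 in both groups. It had 29.0, 30.7 and 27.1 FPKM in GM and 51.8, 49.8 and 54.9 FPKM in DM. Every library of either group was above all other members of the set. The mean went from 28.9 ± 1.79 to 52.2 ± 2.60 FPKM (SD, n = 3), 1.80 times, with a log2 fold change of 0.83 ± 0.0624 (SE; limma adjusted p = 2.30e-05). The FPKM of TRIM54 was 0.0693 to 0.106 of that of TRIM55 in GM and 0.228 to 0.245 of it in DM (difference of log2 ratios 1.49, exact permutation p = 0.1). For TRIM63 over TRIM55 the ranges overlapped, at 0.00875 to 0.0209 in GM and 0.0143 to 0.0205 in DM (exact permutation p = 0.4). TRIM63 over TRIM54 went down, from 0.126 to 0.198 in GM to 0.0627 to 0.0856 in DM (difference of log2 ratios -1.07, exact permutation p = 0.1).

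MUL1 (ENSBTAG00000020850, chr2:132115901-132123552, plus strand), a ligase of the mitochondrial outer membrane that acts on mitofusin, had 6.64, 6.83 and 7.49 FPKM in GM and 7.93, 6.94 and 6.41 FPKM in DM. The highest and the lowest of these values were both in DM. Its mean was 6.99 ± 0.447 FPKM in GM and 7.09 ± 0.772 FPKM in DM (SD, n = 3), and the log2 difference of 0.016 ± 0.0827 (SE; limma adjusted p = 0.897) had a 95% interval from -0.17 to 0.21. The sign turned without GM replicate 1 (-0.015) and without DM replicate 1 (-0.057).

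**Figure D2:**
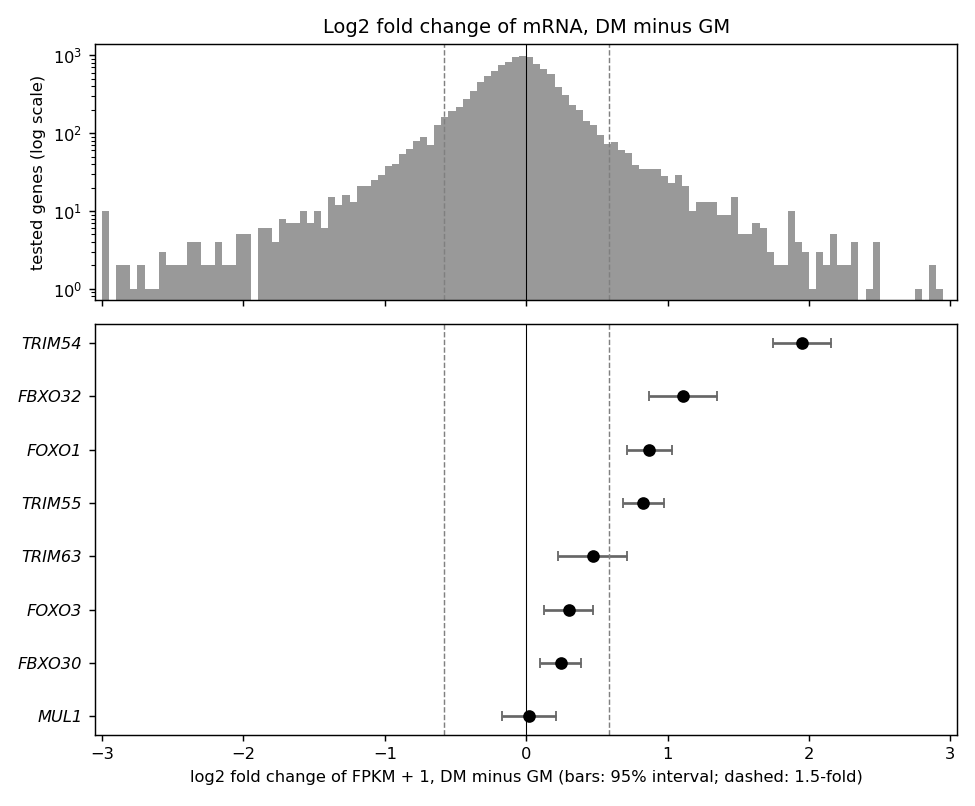
Upper panel, the number of tested genes (log scale) by log2 fold change of FPKM + 1, DM minus GM, with values beyond 3 placed in the end bins. Lower panel, the same fold change for each of the 8 genes with its 95% interval, and dashed lines at a 1.5-fold change. TRIM54 at 1.95 and FBXO32 at 1.11 lie in the right tail of all genes, and the interval of MUL1 spans 0.

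Since FPKM is scaled by transcript length, levels were also ordered between genes. In GM the order was TRIM55, FBXO30, MUL1, FOXO1, FOXO3, TRIM54, FBXO32 and TRIM63, and among neighbours only the ranges of MUL1 and FOXO1 overlapped. In DM it was TRIM55, FOXO1, TRIM54, FBXO30, MUL1, FOXO3, FBXO32 and TRIM63, with overlapping ranges for FOXO1 and TRIM54, for TRIM54 and FBXO30, and for MUL1 and FOXO3. TRIM54 therefore went from the sixth place to the third, and FBXO32 and TRIM63 kept the last places.

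The scaling of the libraries moved all changes together. Rescaling FPKM to the same sum in each library (TPM) shifted the median log2 fold change of all tested genes by 0.11, and of all called genes 59.5% were then higher in DM, against 37.6% as deposited and 49.0% with median-of-ratios size factors. The 7 genes rose and MUL1 did not pass under each of the 3 scalings. TPM values are larger than FPKM while the pseudocount stayed at 1, so genes with low levels can move more. In TPM the log2 fold change of TRIM63 was 0.82, against 0.47 as deposited, and that of TRIM55 was 0.97, against 0.83. Relative to the median of all tested genes, TRIM54 was higher by 2.00 on the log2 scale as deposited, by 2.22 in TPM and by 2.00 with size factors. The same values were 1.16, 1.37 and 1.16 for FBXO32, 0.92, 0.99 and 0.93 for FOXO1, and 0.88, 0.91 and 0.89 for TRIM55. They were 0.52, 0.76 and 0.49 for TRIM63, 0.35, 0.39 and 0.35 for FOXO3, 0.30, 0.32 and 0.30 for FBXO30, and 0.069, 0.079 and 0.072 for MUL1.

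The genes whose pattern over the 6 input libraries was most like that of a member were found by the root mean square distance of centred log2(FPKM + 1) among 12301 other tested genes. Nearest to FOXO1 were WIPF3 (0.0362), BMP4 (0.0372) and LDLRAD4 (0.0396). WNT2 (0.0257), GYG1 (0.0351) and C11H9orf116 (0.0360) were nearest to FOXO3. For FBXO32 the nearest were GANC (0.0656), MTSS1 (0.0790) and APOBEC2 (0.0877). ENSBTAG00000053442 (0.0345), SEMA3B (0.0352) and C11H9orf16 (0.0435) were nearest to TRIM63. With 2 groups of 3, such genes are mainly those with a change of like size.

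The m6A data are 1 list of peaks per group, called after the 3 libraries of the group were pooled, so a peak has 1 fold enrichment (IP over input) in GM and 1 in DM, with no replicate error and no test. m6A is a mark that a methyltransferase complex places on adenosines of mRNA, often near the stop codon and in the 3′ UTR, and reader proteins bind it. The 8 genes held 16 of 19739 GM peaks and 11 of 20790 DM peaks. All 8 had a peak in both lists, as did 68.6% of tested genes. Of the GM peaks 7 were annotated to a 3′ UTR, 5 to a 5′ UTR and 4 to another exon, and of the DM peaks 4, 5 and 2. A peak carries 1 label, so these counts also shift where peaks widen or join. FOXO1, TRIM63 and FBXO30 had fewer peaks in DM, 3 of the 5 genes with at least 2 GM peaks, and 47.1% of all such genes did. Peaks nevertheless covered more bases in DM in 7 of the 8 genes, 12829 in all against 9163 in GM, with 8864 bases in common. Among all genes with peaks in both lists, 72.6% covered more bases in DM, so wider DM peaks were the common case.

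FOXO1 had 3 GM peaks, 2 small ones near its start (61 bases with a fold enrichment of 1.52 and 299 bases with 2.18) and 1 of 1817 bases at chr12:21901247-21991038, annotated to the 3′ UTR, with 6.64. In DM all of these bases lay in 1 peak of 2860 bases (chr12:21900468-21991485), with a fold enrichment of 5.32. That DM peak carries the label 5′ UTR, although it holds all bases of the GM peak labelled 3′ UTR. The label alone therefore cannot be read as a move of m6A. FBXO30 had the same arrangement. Its 3 GM peaks of 241, 631 and 450 bases had fold enrichments of 5.63, 4.47 and 3.24, and all lay in 1 DM peak of 2700 bases (chr9:83071009-83085504) with 8.16. For both genes no peak of one group could be paired with a single peak of the other by the rule of at least 1 shared base.

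**Figure D3:**
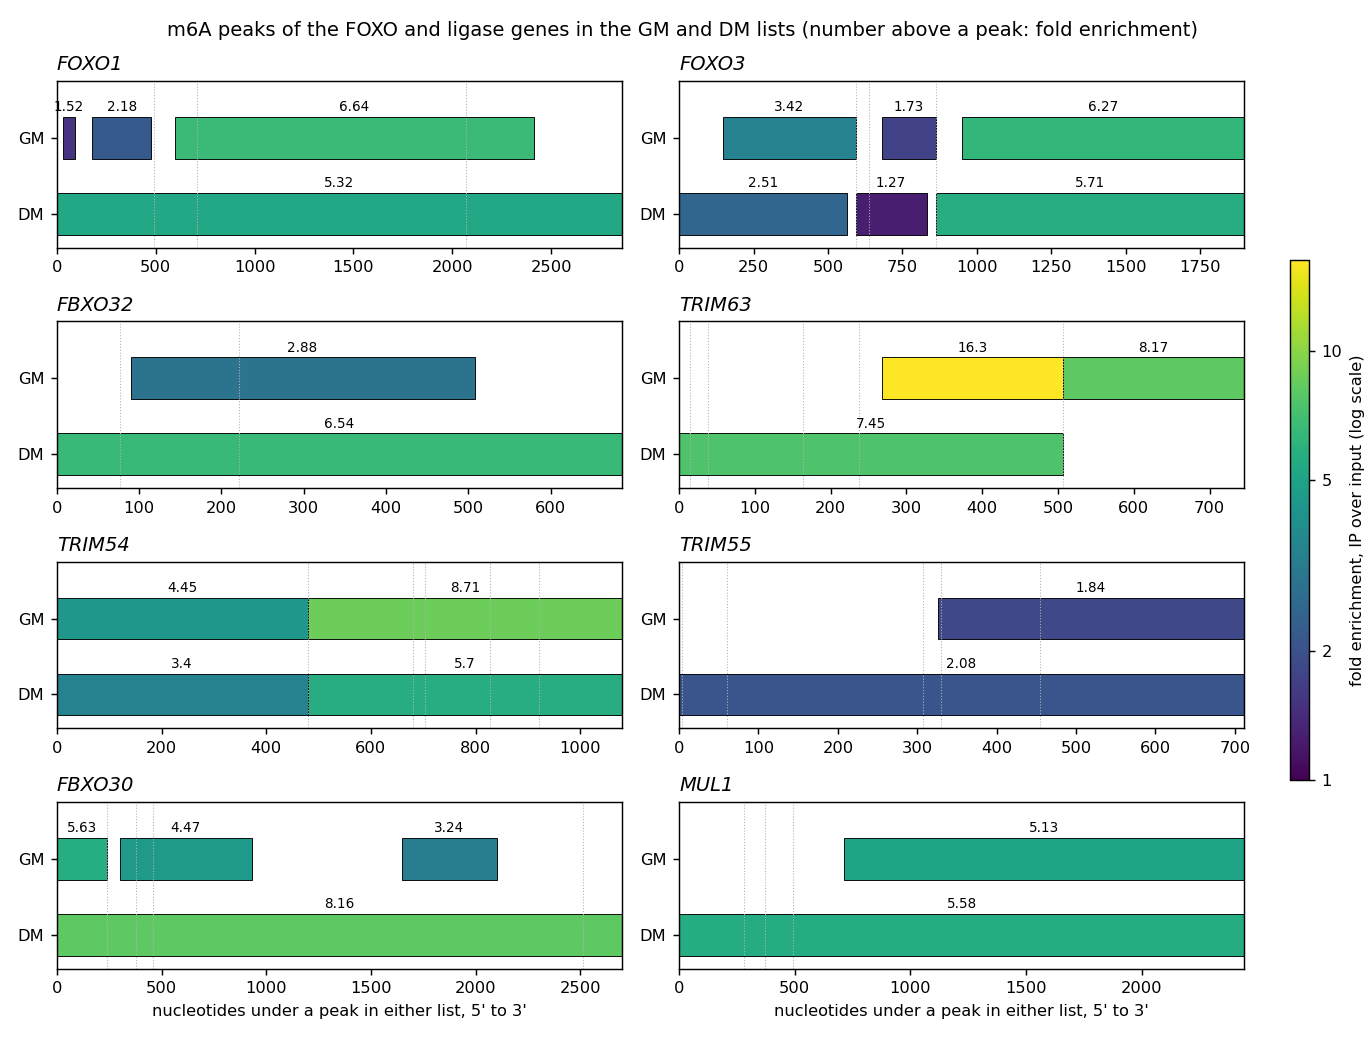
m6A peaks of the 8 genes in the GM and DM lists, drawn to scale over the nucleotides that lie under a peak in either list (5′ to 3′, introns and uncovered stretches left out, dotted lines where stretches join). Colour and the number above each peak give its fold enrichment, IP over input. The 3 GM peaks of FOXO1 and of FBXO30 each lie inside 1 DM peak, and TRIM54 has the same extents in both lists.

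FOXO3 kept 3 peaks in each list. The strongest was in the 3′ UTR (chr9:41522588-41523535 in GM), with a fold enrichment of 6.27 in GM and 5.71 in DM. The peak at the start went from 3.42 to 2.51, and the small exon peak between them from 1.73 to 1.27. In DM the last was weak, with a deposited p of 0.041 and a false discovery rate of 0.116.

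The other 6 pairs of exactly 1 GM and 1 DM peak came from FBXO32, TRIM63, TRIM54, TRIM55 and MUL1. Among all 10239 such pairs, 14.2% were over 1.5 times higher in DM and 10.8% over 1.5 times lower. Of the 9 pairs of the set, 1 was higher by that margin and 2 were lower. The higher one was FBXO32, whose 3′ UTR peak (chr14:16359775-16360838 in GM) went from a fold enrichment of 2.88 over 418 bases to 6.54 over 687 bases. Its ratio of 2.27 stood at the 96.2nd percentile of all pairs. The GM value comes from a gene with a mean of 1.64 FPKM in GM, at the 14.2nd percentile of tested genes. Of the DM peak 60.8% lay over the GM peak, so the 2 values do not cover the same stretch. FBXO32 was thus the 1 gene with a pair in which mRNA rose and m6A enrichment was higher by this margin. Of all tested genes 16.1% rose, and how many of all pairs meet both conditions was not counted.

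The lower ones were in TRIM63 and TRIM54. TRIM63 had the highest fold enrichment of the set in GM, 16.3 in a 3′ UTR peak of 239 bases (chr2:127035393-127035631), and the DM peak over it, of 507 bases, had 7.45, which is 2.19 times lower. The GM value rests on a gene with a mean of 0.407 FPKM in GM, and its deposited p of 1.4e-04 is weak beside that of the 3′ UTR peaks of the other genes, such as 1e-183 in FOXO1. A further GM peak of TRIM63, of 239 bases at the end of the 3′ UTR with a fold enrichment of 8.17 and a deposited p of 2.1e-04, had no DM peak over it, the only member peak in either list without a counterpart. TRIM54 had peaks of the same extent in both lists, as 8.20% of all pairs did, so width does not differ there. Its 3′ UTR peak (chr11:72337029-72338741, 600 bases) went from 8.71 to 5.70, 1.53 times lower, and its 5′ UTR peak (480 bases) from 4.45 to 3.40. The GM values come from a gene with a mean of 2.43 FPKM in GM, at the 20.7th percentile of tested genes. The deposited p of the 3′ UTR peak was 1.6e-11 in GM and 2e-55 in DM. TRIM54 mRNA went up 5.02 times over the same change.

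TRIM55, with the most mRNA, had the lowest enrichment apart from the small FOXO peaks, 1.84 over 386 bases in GM and 2.08 over 712 bases in DM. The peak of MUL1 (chr2:132121823-132123552 in GM) had a fold enrichment of 5.13 in GM and 5.58 in DM, and its bases went from 1730 to 2445. Its label was 3′ UTR in GM and 5′ UTR in DM, although the DM peak held all GM bases, so this is no sign of a move.

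**Figure D4:**
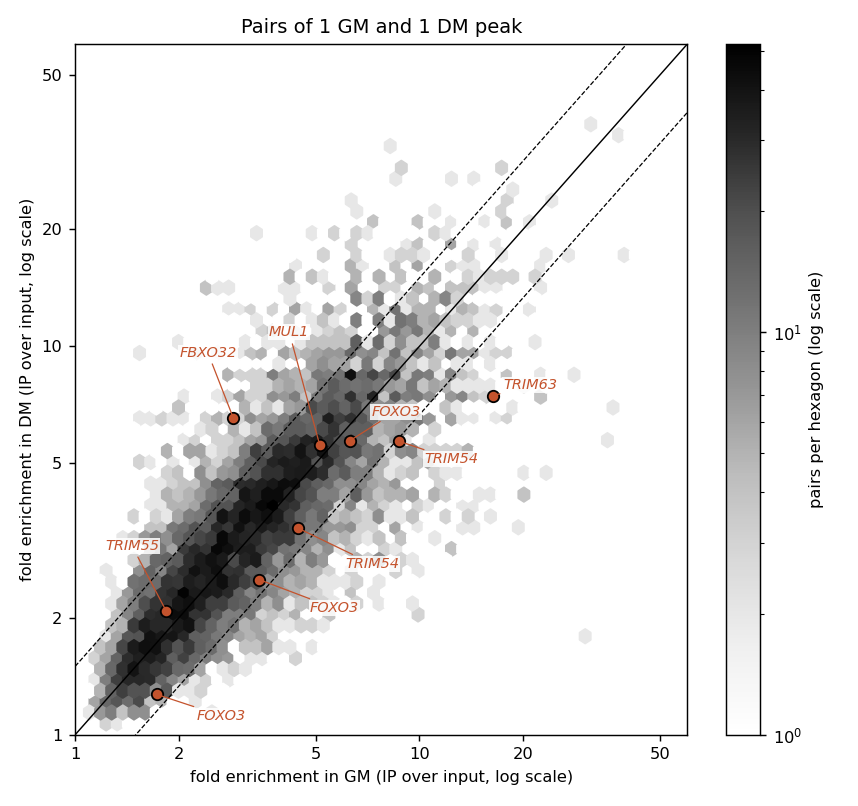
Fold enrichment (IP over input) in DM against GM, on log axes, for all 10239 pairs of exactly 1 GM and 1 DM peak (grey hexagons, shaded by number of pairs on a log scale) and the 9 pairs of the set (points with gene names). The solid line marks equal values and the dashed lines a ratio of 1.5. FBXO32 lies above the upper dashed line, and TRIM63 and the upper TRIM54 point lie below the lower one.

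The pathway around these genes was read from 8 lists of related genes. Their counts stand beside those of all 12302 tested genes, of which 16.1% rose and 26.7% fell as deposited. In TPM 2993 of all tested genes rose and 2038 fell, and with size factors 2554 rose and 2663 fell. Among 11 tested members of the FOXO family and its direct regulators besides FOXO1 and FOXO3, 1 rose, 2 fell and 8 did not pass, with a median log2 fold change of 0.08. SGK1, a kinase that phosphorylates FOXO factors as AKT does, rose from 33.9 ± 3.38 to 64.3 ± 6.64 FPKM (SD, n = 3; log2 fold change 0.90, limma adjusted p = 1.39e-04). AKT2, a kinase that holds FOXO factors in the cytoplasm, fell by 0.18 on the log2 scale (limma adjusted p = 0.0243), but did not pass in TPM (0.420) or with size factors (0.112). In TPM 4 genes of this list rose and 0 fell, and with size factors 3 rose and 1 fell. Without GM replicate 1, DM replicate 1 or DM replicate 3 the count that fell was 1, and without DM replicate 2 the median was -0.020.

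Of 17 tested FOXO target genes other than the ligases, 6 rose, 2 fell and 9 did not pass, with a median of 0.12. In TPM and with size factors 9 rose and 1 fell, and leaving out 1 library gave 4 (without DM replicate 1) to 6 that rose and 1 to 3 that fell. IRS2, an adaptor of the insulin receptor, rose from 1.28 ± 0.0287 to 3.28 ± 0.512 FPKM and BCL6, a transcriptional repressor, from 12.7 ± 0.509 to 23.2 ± 1.497 FPKM (SD, n = 3). CAT, the catalase gene, fell from 30.2 ± 1.97 to 20.8 ± 0.768 FPKM. EIF4EBP1, a brake on translation, fell from 85.6 ± 5.49 to 70.5 ± 8.05 FPKM, and did not pass in TPM (limma adjusted p = 0.154) or with size factors (0.0976).

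Autophagy genes counted 6 that rose, 1 that fell and 12 that did not pass among 19 tested, with a median of 0.16. In TPM 10 rose and 0 fell, and with size factors 8 rose and 1 fell. The count that rose was 4 without GM replicate 2, DM replicate 1 or DM replicate 2, and 3 fell without GM replicate 3. Those with the largest rise were ULK2, a kinase that starts autophagy (7.91 ± 0.578 to 12.3 ± 0.0592 FPKM), and its partner ATG13 (7.75 ± 0.576 to 10.8 ± 0.560 FPKM). GABARAPL2, a protein of the autophagosome membrane, fell from 55.3 ± 2.85 to 44.7 ± 2.27 FPKM (limma adjusted p = 0.00433, and 0.0736 in TPM). No gene of this list passed a fold change over 1.5 on the FPKM + 1 scale as deposited, where ULK2 was just short of it at a log2 fold change of 0.584.

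Of 17 other tested ubiquitin ligases of muscle, 6 rose, 1 fell and 10 did not pass, with a median of 0.13. In TPM 9 rose and with size factors 8, with 0 that fell in either. The count that rose depended on single libraries, with 2 without GM replicate 1 or DM replicate 1, 3 without DM replicate 2 and up to 8 without GM replicate 3. MDM2, the ligase of p53, rose from 21.1 ± 1.95 to 32.7 ± 2.54 FPKM and was the 1 gene of this list past a 1.5-fold change on the FPKM + 1 scale. KLHL41, a sarcomere-associated adaptor of a cullin ligase, rose from 82.6 ± 4.97 to 106.9 ± 9.50 FPKM. CBLB, a ligase of insulin signalling proteins, fell from 20.3 ± 0.835 to 17.9 ± 0.531 FPKM, but not past the threshold in TPM (limma adjusted p = 0.512) or with size factors (0.0987).

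The ligases depend on ubiquitin-conjugating enzymes and on the proteasome. Among 17 tested genes of the SCF core, ubiquitin and its conjugating enzymes, 0 rose, 5 fell and 12 did not pass, with a median of -0.09. Of all tested genes 26.7% fell. Those that fell were UBE2J1 (28.9 ± 1.49 to 20.3 ± 0.503 FPKM), NEDD8 (116 ± 20.0 to 84.5 ± 3.71 FPKM), the modifier that activates cullins, and RBX1, UBE2L3 and UBE2N, the last 3 named here after their values were seen. In TPM 3 of this list rose and 4 fell and the median turned to 0.03, and with size factors 2 rose and 5 fell. Without DM replicate 1 the count that rose was 1, and without GM replicate 3 the count that fell was 7. Subunits of the proteasome fell in 26 of 33 cases and rose in 0, with a median of -0.26, and the count that fell was 16 in TPM and 18 with size factors. Leaving out 1 library gave 18 (without DM replicate 1) to 27 (without GM replicate 3) that fell. PSMD8, of the regulatory particle, fell from 200.0 ± 8.43 to 129 ± 2.68 FPKM, a log2 fold change of -0.63 and the 1 subunit past a 1.5-fold change on the FPKM + 1 scale. PSMD8 was short of that size in TPM (-0.50) and with size factors (-0.56). PSMB5, a catalytic subunit, fell from 74.2 ± 2.86 to 49.2 ± 2.36 FPKM and was just short of that size at -0.584.

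Upstream regulators of the ligases other than FOXO counted 5 that rose, 1 that fell and 10 that did not pass among 16 tested, with a median of 0.15. In TPM 10 rose and 0 fell, with size factors 9 rose and 0 fell, and without DM replicate 1 the count that fell was 0. SMAD2, a mediator of myostatin and activin signalling, rose from 29.7 ± 0.553 to 44.9 ± 1.97 FPKM, and CEBPD, a transcription factor of the stress response, from 42.4 ± 7.42 to 60.9 ± 7.38 FPKM. MYOG, STAT3 and ZEB1, also named after their values were seen, rose by less. TNFRSF12A, the TWEAK receptor, fell from 87.2 ± 3.72 to 75.6 ± 2.41 FPKM (limma adjusted p = 0.0136, but 0.243 in TPM and 0.0664 with size factors).

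Reported substrates and partners of the ligases had the highest median of the 8 lists, 0.33, with 8 genes that rose, 3 that fell and 4 that did not pass among 15 tested. In TPM and with size factors 10 rose and 3 fell. The largest rises were those of contractile and energy genes that MuRF proteins are reported to bind, CKM (10.2 ± 1.41 to 42.5 ± 2.55 FPKM) and MYL2 (61.6 ± 0.542 to 229 ± 6.14 FPKM). The 3 that fell are among the reported targets of FBXO32. They were MYOD1 (61.6 ± 3.94 to 24.8 ± 1.17 FPKM), a myogenic factor, VIM (2758 ± 109 to 1663 ± 103 FPKM), the vimentin gene, and EIF3F, a translation factor named after its value was seen. DES, also in this list, did not pass. Whether the fall of the 3 goes with the rise of FBXO32 was not tested. These are mRNA levels, and neither the proteins nor their ubiquitylation were measured. CKM, MYOD1, DES and MYOG are also in the marker lists above, so these counts are not independent of the check of the labels.

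**Figure D5:**
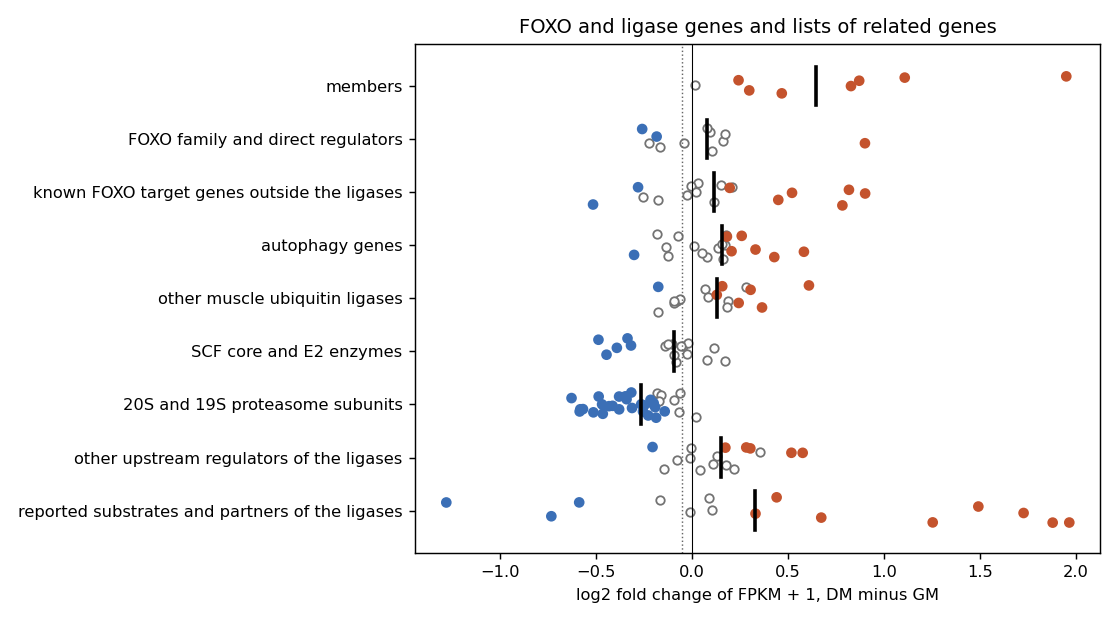
Log2 fold change of FPKM + 1, DM minus GM, for the 8 genes (top row, "members") and 8 lists of related genes, 1 point per tested gene. Filled red points rose and filled blue points fell (limma adjusted p under 0.05), open points did not pass, black bars are list medians and the dotted line is the median of all tested genes, -0.05. Proteasome subunits lie mostly left of that line, and 7 of the 8 genes of the top row right of it and filled.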

How the data were processed

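Input and m6A immunoprecipitated libraries were made from 3 GM and 3 DM cultures, with a strand-marking dUTP method. According to the study's methods, the authors trimmed with Trimmomatic and used HISAT2 with the genome build ARS-UCD1.2. For the m6A data, duplicates and reads with several alignments were then removed (Sambamba). The submitters' processing notes also name cutadapt, fastp, HOMER, ChIPseeker and StringTie. Tool versions are not given in the sources used here. FPKM of the 6 inputs were computed by the authors with StringTie and deposited as 1 table. The table does not give the reads behind a value, so precision comes from the spread of 3 libraries.

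The deposited peak lists, 1 per group, hold exomePeak calls annotated with ChIPseeker. The authors' fold enrichment, a ratio, divides IP by input on a linear scale. The column named score holds the unadjusted p-value as deposited, and 2 further columns give that p-value and its false discovery rate as log10, as the authors' caller wrote them. Peaks called per sample were not analysed here.

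The 8 genes and all lists of related genes were chosen with earlier results of these data known. The study used a count test, which FPKM does not allow. Genes whose mean over the 6 inputs reached 0.5 FPKM were tested in R 4.3.3 with limma 3.58.1 (variance trend, two-sided) on log2(FPKM + 1). Both groups entered, with no covariate, and p-values were adjusted by the Benjamini-Hochberg method over 12302 genes. Within-library ratios were compared with exact permutation tests. Peaks were paired where their exon blocks shared at least 1 base on 1 strand, and a ratio over 1.5 counted as changed in size only (Python 3.11.15, pandas 2.3.3, numpy 2.4.6, scipy 1.17.1, matplotlib 3.10.9). Coordinates count from 1. Named besides the 8 genes are, from each list, the 2 largest rises and the 2 largest falls past the threshold, and the 3 genes nearest in pattern to FOXO1, FOXO3, FBXO32 and TRIM63. Exceptions are marked, and 1 gene that this rule names is not reported here. Alternatives covered the pseudocount, the filter, TPM, size factors, the trend, a replicate block, each library left out, fold thresholds, stricter peak sets, the overlap rule and centred ratios. The test script was checked on simulated data. Promoter, peak and protein sequences were not analysed here.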

Additional observations from a re-analysis of the deposited data

How the results depend on the processing

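Of the 8 genes, FOXO1, FBXO32, TRIM54 and TRIM55 passed the threshold under all 13 alternatives, and TRIM63 under the 12 that could be run, since a filter of 0.5 FPKM in all 6 inputs removed it. Leaving out 1 library gave 5 to 7 genes higher, 0 lower and 4 past a 1.5-fold change, with 4147 to 5425 genes called in all against 5268. MUL1 turned to -0.0147 without GM replicate 1 and to -0.0568 without DM replicate 1, in a range up to 0.0778 with 1 library left out. Adding a fold change over 1.5 left 4 of the 8 genes higher, and 1448 genes called with the adjusted p or 1461 with the unadjusted p under 0.05. With a pseudocount of 0.1 or in TPM, 5 of the 8 genes passed that fold change, as TRIM63 then did too. With a replicate block 7 of the 8 genes were higher and 4513 genes were called in all. No label says that same-numbered cultures of the 2 groups belong together. Deviations of same-numbered libraries correlated at -0.079, -0.12 and -0.21, and those of the other pairs at -0.059 to 0.19. The deviations of a group sum to 0, so these values are not independent and cannot settle a pairing. The block changed no call among the 8. Of the other muscle ligases 3 rose with the block, against 6, and of the autophagy genes 4, against 6. Lower m6A pairs numbered 1 with an overlap of 50% of both peaks, where TRIM63 dropped out, and 1 with a ratio over 2, where TRIM54 dropped out, in place of 2. The 50% rule again gave 9 pairs of the set, since the largest FOXO1 peaks then formed a pair, with 6.64 in GM and 5.32 in DM. A false discovery rate under 0.05 removed the weak FOXO3 exon peak from DM, and a fold enrichment of at least 2 left 7 of the 8 genes with a GM peak. The peak lists carry no replicate error, and TRIM63 lies near the lower end of measured levels.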
